A study of Mus musculus with 2 samples.

Results

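The ISL1 peaks described here lie nearest to the forkhead genes Foxp1, Foxp2 and Foxc1 and to Gmds, the gene whose introns adjoin Foxc1. They were taken from a list of peaks from sinoatrial node cells, the natural pacemaker cells of the heart, as every peak listed under Foxp1, Foxp2, Foxp4, Foxc1 or Gmds at any distance from the transcription start site (TSS). That gave 14 of 1483 peaks: 6 under Foxp2, 4 under Foxc1, 3 under Gmds, 1 under Foxp1 and 0 under Foxp4. The genes were selected on the number and place of their peaks in this same list, so those counts are a description and were not tested. ISL1, a LIM-homeodomain transcription factor, was mapped by ChIP-seq, the sequencing of DNA that its antibody pulls down, in cells of Hcn4-H2BGFP mice of ICR background at postnatal day 1 to 3. The reporter, a nuclear green fluorescent histone driven by Hcn4, was used to sort the cells, which ties the sample to cells with that fluorescence. Whether the driver was still active in them was not tested. The series held 1 ISL1 library and 1 input DNA library from the same kind of cells, with no replicate of either, and only the ISL1 peak list was analysed here. A peak list gives no expression level, so the cell label could not be checked against markers.

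Forkhead proteins bind DNA through a winged-helix domain, with a core site close to TGTTTAC. Foxp1, Foxp2 and Foxp4 form a subfamily that acts mostly by repression and whose members pair with each other through a leucine zipper. In mice Foxp1 is needed for heart valve and outflow tract formation and for growth control of cardiac muscle, Foxp2 is best known from neural circuits of vocal communication and from the lung, and Foxp4 acts in foregut and heart development. Foxc1 acts in mesenchyme, with Foxc2, in the formation of the eye, the vessels and the cardiac outflow tract. Gmds encodes GDP-mannose 4,6-dehydratase, the enzyme that opens the synthesis of GDP-fucose, the donor for fucose on Notch receptors and other glycoproteins.

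The distances below were measured from start sites. The sequence around 3 starts of Foxp1, Foxc1 and Gmds is shown to set the results in their context. For Foxp1, whether the start shown is the one its distance was measured from was not determined. The sequences are RefSeq's, build GRCm38.p6, from 250 bases before to 50 bases after a start. The peaks are in mm9 coordinates and their own sequence was not used here. Capitals mark TAATTG or TAATTA on either strand, cores that LIM-homeodomain proteins can bind, which in the Foxp1 window overlap each other; TGTTTAC was searched on both strands as well.
Foxp1, internal start, chr6:99266466-99266765, minus strand: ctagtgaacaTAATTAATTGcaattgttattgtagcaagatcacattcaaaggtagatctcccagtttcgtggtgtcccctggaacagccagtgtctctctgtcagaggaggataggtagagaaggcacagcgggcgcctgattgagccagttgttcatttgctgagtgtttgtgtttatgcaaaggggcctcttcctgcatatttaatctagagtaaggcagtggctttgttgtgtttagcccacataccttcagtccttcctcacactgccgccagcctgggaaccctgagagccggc
Foxc1, chr13:31806396-31806695, plus strand: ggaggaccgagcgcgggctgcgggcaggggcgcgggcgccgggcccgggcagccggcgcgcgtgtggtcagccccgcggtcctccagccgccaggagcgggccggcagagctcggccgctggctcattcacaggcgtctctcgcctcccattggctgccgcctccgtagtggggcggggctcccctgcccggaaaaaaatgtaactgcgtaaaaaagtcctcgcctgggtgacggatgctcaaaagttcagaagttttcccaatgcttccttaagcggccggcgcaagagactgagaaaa
Gmds, chr13:32338495-32338794, minus strand: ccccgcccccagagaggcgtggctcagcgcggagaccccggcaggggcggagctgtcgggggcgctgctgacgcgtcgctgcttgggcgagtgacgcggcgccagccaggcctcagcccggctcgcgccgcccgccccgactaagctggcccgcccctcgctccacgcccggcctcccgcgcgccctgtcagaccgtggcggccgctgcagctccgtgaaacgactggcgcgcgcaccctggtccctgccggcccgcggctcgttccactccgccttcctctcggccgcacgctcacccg
The table matched 4 of the 5 genes, with 6 windows in all. The gene without a window was Foxp2, so the sequence around its start was not searched. Foxp1 has 3 starts in it, and the one shown was chosen after the search because it was the only window with both cores, 240 to 231 bases upstream of the start. Another Foxp1 start had 1 TAATTG match and the last had none. The windows of Foxc1, Gmds and Foxp4 had no match to the 3 motifs. Of all 32851 windows in the table, 8% held TAATTG, 5.29% TAATTA and 3.65% TGTTTAC. Base composition differed between the windows, with 48.7% G and C in the Foxp1 window shown, 67.3% in that of Foxc1 and 78% in that of Gmds, against a median of 52.7% over the table. A match in a window is a string of letters and was not tested as a binding site.

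Peak height is given as the authors' peak score, whose scaling was not stated. Each of the 1483 scores equalled a whole number of steps of 1.36826, rounded to 3 digits. If a step is 1 sequenced tag, the lowest peak of the list rests on 6 tags and the median peak on 11. The 14 peaks had a median score of 17.8 and a range of 9.58 to 38.3, against a median of 15.1 and a range of 8.21 to 84.8 over the list. In steps the 14 peaks ran from 7 to 28, so a single peak has a wide counting interval. The exact Poisson 95% intervals below, on the score scale, take a step as a tag and cover counting error only.

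Foxp2 had a peak at its promoter and a row of 5 more inside the gene. The promoter peak had a score of 17.8 (9.47 to 30.4) and lay at chromosome 6 15134797 to 15134941 (mm9), with its centre 0.637 kb upstream of the TSS. The authors' annotation put 1 of the 14 peaks in a promoter, against 3.24% of all peaks. The highest Foxp2 peak scored 28.7 (17.8 to 43.9) in intron 2 of 16, at 15232285 to 15232429, 96.9 kb downstream of the TSS. Its rank was 53 of 1483, shared among 13 peaks of that score. The promoter peak ranked 322, with 115 peaks at that score, and its interval overlapped that of the intron 2 peak.

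The other 4 Foxp2 peaks lay farther into the gene and were lower. In intron 3 there were 3 peaks, of scores 17.8, 12.3 and 9.58, at 136 kb, 136 kb and 176 kb from the TSS. Intron 5 held 1 peak of 12.3 at 193 kb. The first 2 of intron 3 lay at 15271499 to 15271643 and 15271912 to 15272056. Their centres were 413 bp apart and their edges 269 bp, close to the 100 to 400 bp to which the chromatin was sheared. Whether they are separate binding sites was not tested. The peak of 9.58 (3.85 to 19.7) rested on 7 steps and ranked 1422 of 1483. All 5 intronic peaks lay in introns 2, 3 and 5 of the 16 introns of the transcript.

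**Figure D1:**
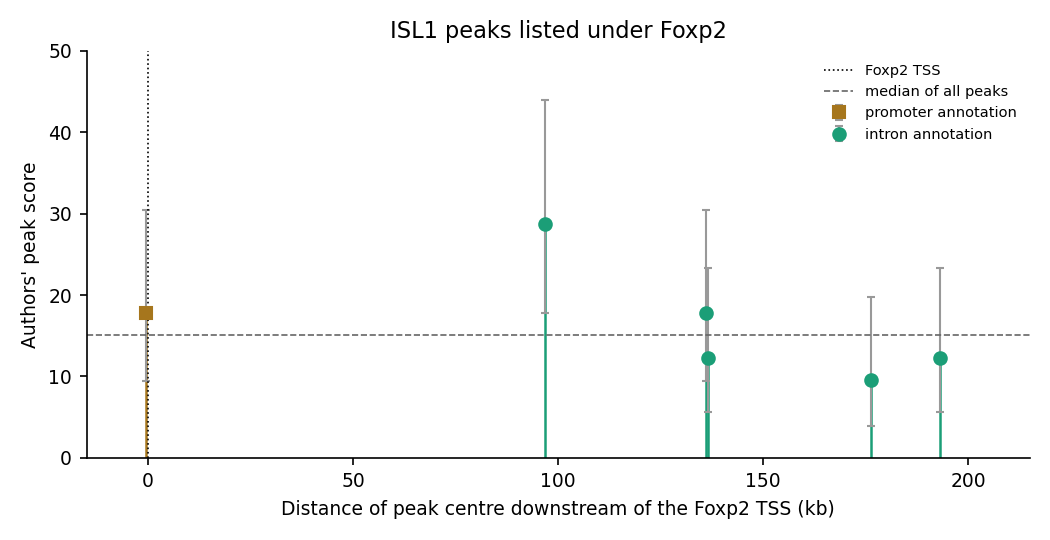
Authors' peak score (vertical axis) of the 6 ISL1 peaks listed under Foxp2 against the distance of each peak centre from the Foxp2 TSS in kb (horizontal axis); bars are exact Poisson 95% intervals if a score step is 1 tag, and the dashed line is the median of all peaks. The promoter peak of 17.8 stands alone near the start, and the 5 intronic peaks run from 96.9 to 193 kb, with the highest, 28.7, nearest to the start.

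Joined at gaps of up to 50 kb, the 5 intronic peaks formed 1 group of 96.3 kb and the promoter peak stood apart, 97.5 kb from the nearest of them. Steps between neighbours in the group were 39.2, 0.413, 39.8 and 16.8 kb. Upstream of the promoter peak the next peak on the chromosome analysed here was 8717 kb away, listed under Shfm1, with a score of 15.1. On the other side the last Foxp2 peak was followed after 219 kb by an intergenic peak of 32.8 (15547353 to 15547497), which is higher than every Foxp2 peak. It lay 412 kb from the Foxp2 TSS and 123 kb upstream of the TSS of Mdfic, under which it is listed. Of 1003 genes with a listed peak, 15 had at least as many peaks as Foxp2 (1.5%), a count that led to the choice of Foxp2 and is no result. The 3 genes most like it by number of peaks and then by highest score, in this 1 library, were Atp5j, Robo2 and Robo1, each with 6 peaks. Their highest scores were 28.7, 26.0 and 34.2. Their peaks differed in place. Those of Atp5j lay 5.83 to 24.8 kb from its TSS and none was in its own introns, those of Robo2 lay at 47.5 to 421 kb with none in its introns, and those of Robo1 at 226 to 695 kb with 1 in its introns.

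Foxp1 had 1 peak, in intron 2 of 18 of its long transcript, at chromosome 6 99226032 to 99226176. Its score was 17.8 (9.47 to 30.4), equal to that of the Foxp2 promoter peak and to 2 others of the 14. The nearest start was an internal one, and the peak lay 9.60 kb upstream of it. Whether that start is the one whose sequence is shown above was not determined. No other peak was close: the neighbours were listed under Gm765, 808 kb away with a score of 10.9, and under Ppp4r2, 1675 kb away with a score of 16.4. Foxp1 thus had a single isolated peak, where Foxp2 had a row.

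Foxp4 had no peak in the list analysed. In the gene order of chromosome 17 the nearest protein-coding genes with a peak were Runx2, 73 places before it, and Slc5a7, 33 places after it. This is order only, as distances across builds were not computed. Foxp3, the subfamily member of regulatory T cells, had none either.

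Foxc1 had 4 peaks, all of them far downstream of the gene and inside Gmds. Their scores were 15.1 (7.51 to 26.9), 10.9 (4.73 to 21.6), 30.1 (18.9 to 45.6) and 20.5 (11.5 to 33.9), in order of distance. These distances from the Foxc1 TSS were 152, 202, 242 and 249 kb. All 4 lay in intron 7 of 10 of Gmds, over 96.9 kb, and 2 of them, the 2 highest, were 6.73 kb apart at chromosome 13 32140521 to 32140665 and 32147250 to 32147394. The peak of 30.1 ranked 43 of 1483. No peak was nearer to the Foxc1 TSS: on the upstream side the closest was the peak listed under Foxf2, 174 kb from the Foxc1 TSS.

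Gmds itself was listed for 3 peaks, of which 2 were inside the gene. Both lay in intron 4 of 10, 29.8 kb apart. The stronger, at chromosome 13 32271960 to 32272104, had a score of 38.3 (25.5 to 55.4) and was the highest of the 14 peaks, at rank 10 of 1483, a rank shared among 9 peaks. It lay 158 kb downstream of the Gmds TSS. The other, at 32242120 to 32242264, scored 21.9 (12.5 to 35.6), lay 188 kb from the TSS, and was the only one of the 14 on an annotated repeat, a MamRep434 DNA transposon. On repeats stood 7.82% of all peaks. The last Gmds peak was intergenic, 180 kb upstream of the TSS, with a score of 17.8 (9.47 to 30.4).

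In all, 6 peaks lay in introns of Gmds, 4 listed under Foxc1 and 2 under Gmds, over 222 kb. The 2 genes converge, and the listing follows the midpoint between their starts. The Foxc1 TSS and the Gmds TSS were 532 kb apart, so a peak changes its listed gene 266 kb from either. The intron 7 peak of 30.1 was 242 kb from the Foxc1 TSS and 290 kb from that of Gmds. Its neighbour of 20.5 was 249 kb from the Foxc1 TSS and 283 kb from that of Gmds. The intron 4 peak of 38.3 was 374 kb from the Foxc1 TSS, and that of 21.9 was 344 kb from it. By scores the peaks of intron 4 and the 2 at the far end of intron 7 were the 4 highest, from 20.5 to 38.3, and the 2 closest to Foxc1 had 15.1 and 10.9. The counting intervals of the 38.3 peak and the 10.9 peak, the extremes of the 6, did not overlap, while those of the 4 highest did. The interval of the 10.9 peak overlapped those of all but the 38.3 peak, and that of the 15.1 peak overlapped all the others. Whether height changes along the stretch was not tested.

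**Figure D2:**
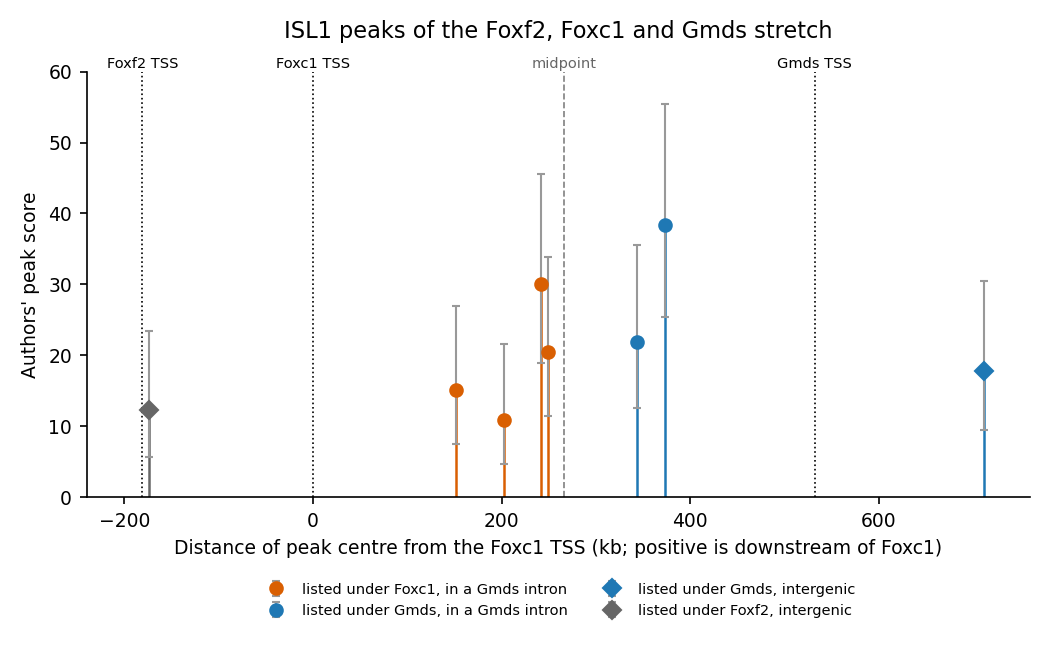
Authors' peak score (vertical axis) of the peaks listed under Foxf2, Foxc1 and Gmds against distance from the Foxc1 TSS in kb (horizontal axis), with exact Poisson 95% intervals if a score step is 1 tag; dotted lines mark start sites and the dashed line the midpoint between the Foxc1 and Gmds starts. The 6 peaks in Gmds introns lie 152 to 374 kb downstream of Foxc1, 4 on the Foxc1 side of the midpoint and 2 on the Gmds side, and the highest, 38.3, is on the Gmds side.

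Of the 12 intronic peaks among the 14, 4 were listed under a gene other than their host, against 27.9% of the 599 intronic peaks of the list with a matched host. All 4 were the Foxc1 peaks. Among 431 genes that held an intronic peak, 5 held 6 or more (1.16%): Unc5c with 10, Lrmda with 9, and Erc2, Ptprd and Gmds with 6 each. Foxp2 came next with 5, as did Dennd1a and Eya4. The count for Gmds led to its choice, and gene length was not corrected for. Chromosome 13 had 85 peaks, 0.742 per Mb between its first and last, against 0.615 per Mb over all chromosomes.

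**Figure D3:**
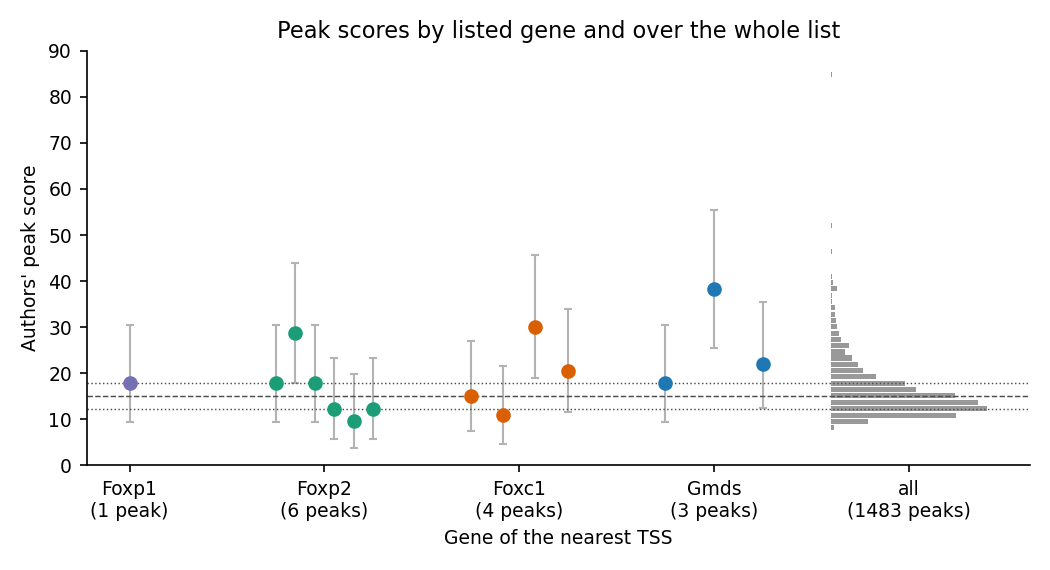
Authors' peak score (vertical axis) of each peak by the gene of its nearest TSS (horizontal axis), with exact Poisson 95% intervals if a score step is 1 tag, and at the right the distribution of all 1483 scores as bars whose length is the number of peaks; lines mark the median and quartiles of all peaks. The 3 Gmds peaks stand at or above the upper quartile of 17.8, and the 6 Foxp2 peaks run from 9.58 to 28.7.

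Height and tag shape were not named in the choice of genes, and they are given beside the whole list without a test. The reason is that the 14 peaks lie at the loci of Foxp1, Foxp2 and Foxc1-Gmds only, in 1 library, and the list was known. Of the 14, 9 had a score at or above 17.8, the 75th percentile, against 29.4% of all peaks, and 10 were at or above the median, against 51.1%. The first cutoff falls on a tied score, as 115 peaks of the list scored exactly 17.8. Among the 14 these were the Foxp1 peak, the Foxp2 promoter peak, the first intron 3 peak of Foxp2 and the intergenic Gmds peak. The focus ratio, a share between 0 and 1 per peak that HOMER gives for how tags sit around the centre, had a median of 0.707 in the 14 peaks, from 0.538 to 0.889, and 0.739 in the list. The lowest and the highest of the 14 were low peaks, the 10.9 peak of Foxc1 and the 9.58 peak of Foxp2.

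Place and grouping went into the choice of the genes, so the following shares describe the 14 peaks and nothing is read from their difference from the list. Introns held 12 of 14, against 40.8% of the list, and the remaining 2 were the Foxp2 promoter peak and the intergenic Gmds peak. Beyond 100 kb from the nearest TSS lay 11 of 14, against 44.6%, and the 3 within it were the Foxp1 peak, the Foxp2 promoter peak and the Foxp2 intron 2 peak. The median distance was 167 kb for the 14 and 83.4 kb for the list. Downstream of the nearest TSS lay 11 of 14, against 58.8% of all peaks. Another peak within 50 kb was present for 10 of 14, against 29.1%, and the 4 without one were the Foxp1 peak, the Foxp2 promoter peak, the intergenic Gmds peak and the Foxc1 peak of 15.1. Another peak within 1 kb was present for 2 of 14, the close pair of Foxp2, against 5.93%.

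In the forkhead family as a whole, 7 of 44 genes were nearest to a peak at any distance (15.9%), against 3.8% of 21027 protein-coding genes of the reference table. Foxp1, Foxp2 and Foxc1 are among the 7, so the share is a description, and gene spacing was not corrected for. The other 4 had 5 peaks, of scores 10.9 to 17.8. Foxf2, a forkhead gene of mesenchyme beside Foxc1, had 1 of 12.3 at 6.81 kb downstream of its TSS, chromosome 13 31724425 to 31724569. Foxq1, which precedes Foxf2 in the same cluster, had none. Foxn3 had 2 intergenic peaks upstream, of 10.9 at 7.05 kb and 17.8 at 80.1 kb. Foxo1, an insulin-responsive factor, had 1 of 16.4 in its 3′ UTR, and Foxa1, a pioneer factor of endoderm, 1 of 16.4 at 49.5 kb. Of the 4 genes, Foxo1 alone had its peak inside the gene.

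Partners and targets were looked up from 3 lists, chosen like the members with results known. The counts below stand beside 3.8%, the share of all protein-coding genes of the reference table that were nearest to a peak at any distance. Gene length and spacing were not corrected for, and no excess was tested. Among 22 partners and targets of Foxp factors, 3 were nearest to a peak (13.6%), all beyond 100 kb. Robo1, an axon guidance receptor, had 6 peaks of 12.3 to 34.2. Cntnap2, a neurexin-family gene that FOXP2 represses in human cells, had 1 of 16.4, at 1042 kb from the nearest TSS. Mef2c, a factor of muscle and heart, had 1 of 12.3 at 100.3 kb. Among 20 partners and targets of Foxc1, 2 were nearest to a peak (10%), both beyond 100 kb: the chemokine gene Cxcl12, with 1 of 16.4 at 161 kb, and Isl1 itself, with peaks of 10.9 at 185 kb and 15.1 at 200 kb upstream. Foxc2, the closest relative of Foxc1, had none. Among 16 genes of GDP-fucose synthesis and use, 1 was nearest to a peak (6.25%), which is Gmds, chosen for its peaks.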

How the data were processed

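ISL1-bound chromatin of sorted sinoatrial node cells was sequenced as 1 library, beside 1 input library that was not analysed here. Per the labels' protocols, crosslinking used disuccinimidyl glutarate (2 mM, 30 min) and then formaldehyde (1%, 10 min), which also holds factors that bind through partners. Shearing gave fragments of 100 to 400 bp, and 5 µg of ISL1 antibody was used. Bowtie and HOMER are named, on mm9, per the submitters' processing notes. Versions and caller settings: not given in the sources used here. Peaks were annotated with HOMER from a peak table named for the input, per the file headers, and each peak of 144 bp carries the authors' deposited score, a focus ratio (a fraction) and the signed distance to the nearest TSS.

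Peaks were selected by listed gene. The members and the gene lists were chosen with earlier results of these data known. An entry of the Foxp partner list is not reported here. Host genes were matched by accession to a RefSeq table (GRCm38.p6), and 1002 of 1003 listed genes matched by identifier. Distances between peaks are between centres. Score steps were found by a search for the step whose multiples match the scores, with 0 of 1483 off. Intervals are exact (Poisson, scipy 1.17.1); calculations used pandas 2.3.3 and were tested on simulated data. No count test was possible with 1 library, and total reads were not analysed. Named genes were all members, forkhead and list genes with a peak, hosts, neighbours and the 3 genes most like Foxp2; others, such as genes in a count of 5 or fewer, were chosen after the values were known. Alternatives were stricter score and focus-ratio thresholds, removal of repeats, merging of close peaks, other joining gaps, host genes and a distance limit.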

Additional observations from a re-analysis of the deposited data

How the results depend on the processing

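Of 28 alternatives to 4 counts, 19 left the count within 1.5 times its value. The 14 peaks became 9 when peaks under the 75th percentile by score were left out, 6 at a focus ratio at or above the median, and 3 within 100 kb of the TSS. The Foxp2 group of 5 became 2 at or above the median score, 2 at or above the 75th percentile, 2 at a focus ratio at or above the median and 2 with a joining gap of 10 kb; with 100 or 200 kb the promoter peak joined and it held 6. The 6 peaks in Gmds introns became 3 at a focus ratio at or above the median. The 7 forkhead genes became 4 at or above the 75th percentile. These changes follow from the smaller sets of peaks or the shorter gap. No paired analysis was possible because the series has 1 ISL1 library and no replicate numbers. The 14 peaks rest on 7 to 28 steps each, which are small counts if a step is 1 tag. Sequencing depth itself was not examined.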

Other observations

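Beyond the last Foxp2 peak, ISL1 peaks continued along chromosome 6. The next 5 peaks, listed under Mdfic, which encodes a protein with the MyoD family inhibitor domain, were all intergenic, with scores of 13.7 to 32.8 at 412 to 967 kb from the Foxp2 TSS. The next 9, listed under Tfec, a gene of the MITF family of basic helix-loop-helix factors, had scores of 12.3 to 19.2 and lay at 1148 to 1702 kb. Of these 9, 8 were intergenic and 1 was in an intron. Only a set number of peaks was followed, so these 9 need not be all the peaks listed under Tfec. Which gene these peaks act on cannot be read from a peak list.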
